A study of Sus scrofa with 23 samples.

Results

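The genes SLC22A5, ACADVL, HADHB, ACADM, ACADS and ECI1, which serve carnitine uptake and mitochondrial beta-oxidation of fatty acids, were followed across 4 ages of pig offspring. All probe sets whose only gene symbol was one of these 6 were taken, which gave 9 of the 24123 probe sets on the array and 6 of 6765 genes. ACADVL had 2 probe sets and HADHB had 3, numbered by falling mean signal. The other 4 genes had 1 each. Genome positions of the probe sets were not used here. The samples came from offspring of German Landrace gilts that received a low protein (LP) diet in gestation. Every one of the 23 samples carried this diet, so no comparison below is a comparison of diets. The stages were 94 days post conception (94 dpc, 5 samples) and 1, 28 and 188 days post natum (dpn, 6 samples each). Per stage, offspring of 3 gilts were used and the labels do not tie a sample to a dam, so some samples of a stage share a dam and p-values over samples may be too small.

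Mitochondrial beta-oxidation shortens fatty acids in repeated rounds, and each round passes electrons to the respiratory chain. Long-chain fatty acids enter the mitochondrion as carnitine esters, and SLC22A5 (also called OCTN2) is the plasma membrane carrier that brings carnitine into the cell. The first step of a round is made by acyl-CoA dehydrogenases that differ in the chain length they prefer: ACADVL acts on very long chains, ACADM on medium chains and ACADS on short chains. HADHB is the beta subunit of the trifunctional protein of the inner membrane, which completes the round for long chains and holds the thiolase. ECI1 is an isomerase that moves the double bonds of unsaturated fatty acids to where the pathway can use them. Skeletal muscle and liver are both known for high use of this pathway, and in mammals milk fat becomes a main fuel after birth.

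The array gave 1 linear signal per probe set and sample, and 23999 probe sets entered the tests after control probe sets were left out. The samples are labelled liver whereas the series title names muscle. The 8 measured genes of 10 skeletal muscle markers had a median percentile of 99.8 to 99.9 within the arrays, and the 12 hepatocyte markers one of 44.8 to 72.4, so the markers go against the liver label. The summed signal of the muscle markers was 228000 to 265000 at 94 dpc, 269000 to 482000 at 1 dpn, 368000 to 632000 at 28 dpn, and at 188 dpn 514000 to 690000. That of the hepatocyte markers was 11800 to 38000, 4810 to 20000, 2090 to 31700 and 2790 to 24500 in the same order, so it varied widely within stages. The part of hepatocyte RNA in the values below was not tested. The GAPDH control probe sets, whose 5' over 3' signal ratio falls when labelled copies stop short of the 5' end, set 3 samples apart. Replicates 2, 4 and 5 of 1 dpn had ratios between 0.0868 and 0.148, while the remaining 20 samples had 1.09 to 1.29. The same ratio of the actin control probe sets did not set these 3 samples apart. It was 0.817 to 1.01 in them and 0.999 to 1.21 in the other 1 dpn samples. The cause of the low GAPDH ratio was not tested. The main log2 changes and counts that rest on 1 dpn are therefore also given in those 20 samples. In whole tissue, fewer cells of a type and less RNA per cell cannot be told apart.

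Of the 6 genes, 5 had their lowest stage mean at 94 dpc, and the same 5 rose between 94 dpc and 1 dpn. Of the 9 probe sets, 7 were higher at 1 dpn than at 94 dpc and 0 were lower, where 8.08% of all probe sets were higher (limma, adjusted p under 0.05 over all probe sets). As genes, each by its brightest probe set, 5 of 6 were higher, with a median log2 change of 2.00 against -0.06 over all 6765 genes. For 5 of the 9, every 1 dpn sample lay above every fetal sample, which held for 4.2% of all probe sets. SLC22A5 and HADHB probe set 3 did not pass. In the 20 samples of higher GAPDH ratio, HADHB probe set 3 passed too, which made 8 of 9 against 7.81% of all probe sets. Markers of several cell types moved in the same comparison, where 13.7% of all genes were higher and 19.4% lower. Of the muscle markers, 2 of 8 were higher at 1 dpn and 0 lower (median log2 change 0.42). Of the 4 measured fibroblast markers 3 were lower (median -1.73), with POSTN, a matrix protein, 19.9-fold lower, and of the 5 endothelial markers 4 were lower (median -1.66). The part of these cell types in the rise of the 6 genes was not tested.

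After birth, fewer of the 9 probe sets changed between neighbouring stages. Between 1 and 28 dpn, both ACADVL probe sets fell and the other 7 probe sets did not pass, where 7.03% of all probe sets were lower. ACADVL probe set 1 was the only 1 of the 9 with no overlap between these stages, and 2.7% of all probe sets lay entirely lower. Over the 20 samples of higher GAPDH ratio, HADHB probe set 3 and ACADS fell as well, so that 4 of the 9 were lower against 5.11% of all. Between 28 and 188 dpn, SLC22A5, HADHB probe set 1 and ECI1 fell, which is 3 of 9 probe sets against 9.15% lower among all. SLC22A5 and ECI1 did so with no overlap, as did 6.41% of all probe sets. Between 94 dpc and 188 dpn, 5 of the 9 were higher, where 13.3% of all probe sets were higher, namely ACADVL probe set 1, HADHB probe sets 1 and 2, ACADM and ACADS. The latter 4 had no overlap, which held for 10.7% of all probe sets. The median log2 change of the 6 genes was -0.31 from 1 to 28 dpn, -0.63 from 28 to 188 dpn and 0.87 from 94 dpc to 188 dpn, against 0.03, -0.06 and -0.08 over all genes. These comparisons share samples with each other, so each gene's values are set side by side in what follows.

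**Figure D1:**
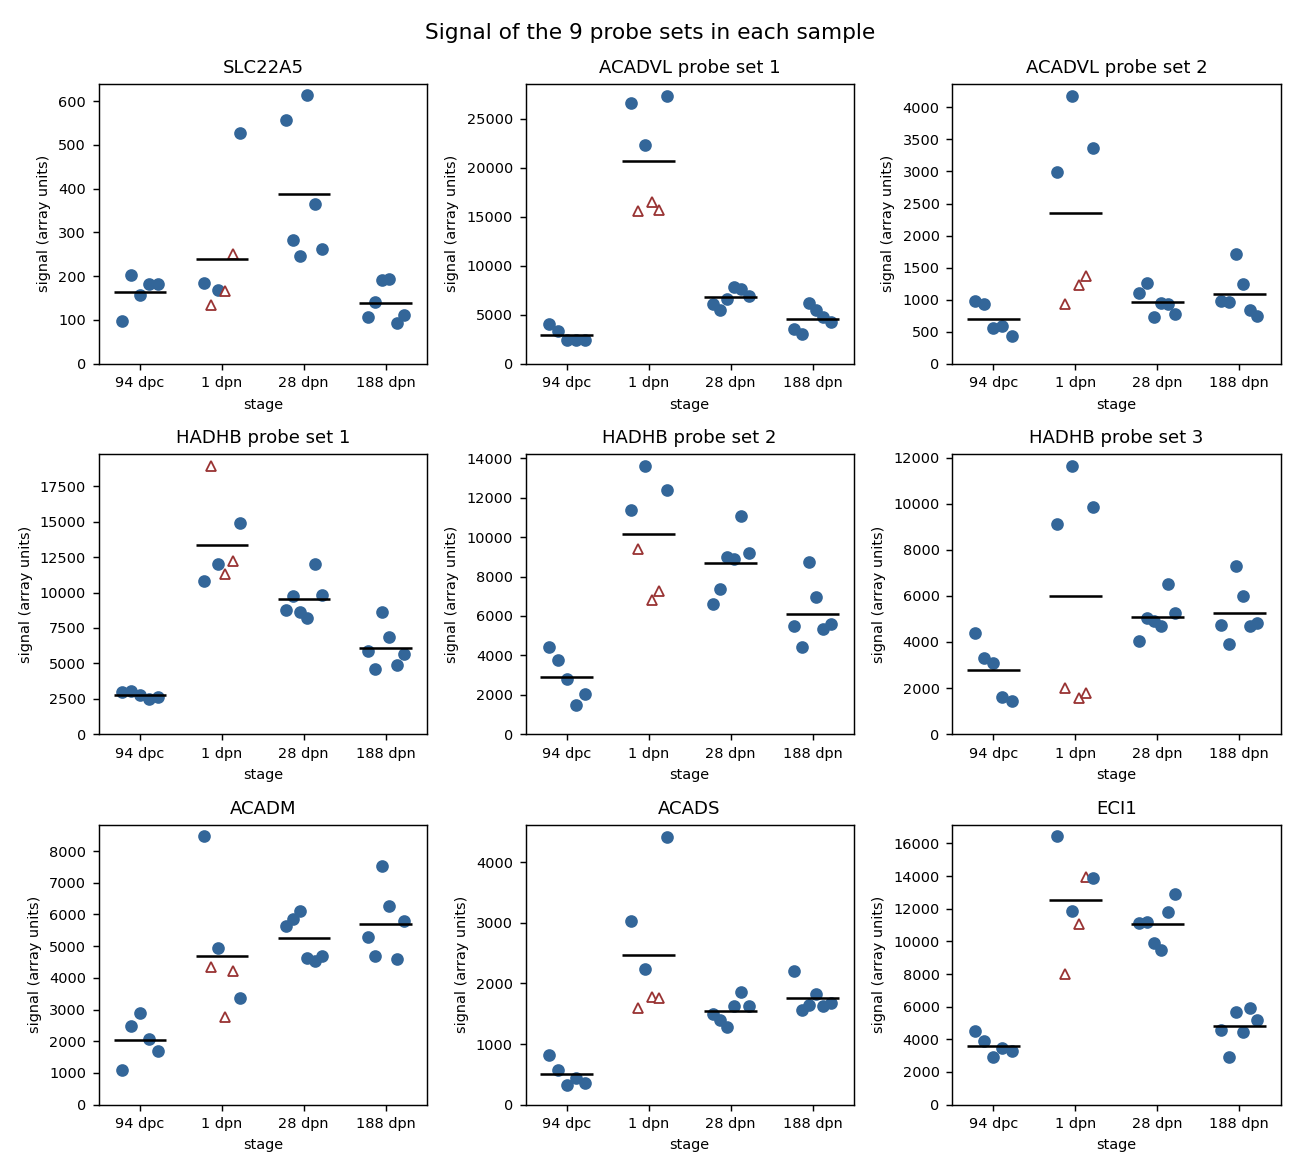
Signal (array units, linear axis from 0) of each of the 9 probe sets in every sample, by stage on the horizontal axis; black lines are stage means and open red triangles are the 3 samples at 1 dpn of low GAPDH ratio. ACADVL probe set 1 lies at 15615 to 27326 at 1 dpn and below 7820 in every other sample, whereas ACADM lies at 2756 to 8465 at 1 dpn and at 4534 to 7516 at 28 and 188 dpn.

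SLC22A5, the carnitine carrier, was highest at 28 dpn. At 94 dpc its signals were 98, 202, 156, 183 and 183. They ran from 134 to 528 with a median of 176 at 1 dpn, from 246 to 614 with a median of 324 at 28 dpn, and from 93 to 193 with a median of 127 at 188 dpn. The 28 dpn samples all lay above all 94 dpc samples and all 188 dpn samples, and they overlapped with those of 1 dpn. These were mid-range values, at the 40.1 to 79.7 percentile of their arrays, and detection calls were not used here.

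The rise of SLC22A5 from 94 dpc to 28 dpn was 2.15-fold (log2 change 1.11 ± 0.31 SE, limma adjusted p = 0.011). At 28 dpn, 7 of the 9 probe sets were higher than at 94 dpc and the same number had no overlap, where 8.87% of all probe sets were higher and 7.83% entirely so. The fall from 28 to 188 dpn was 2.52-fold (log2 change -1.33 ± 0.29, adjusted p = 0.0031). The 1 dpn stage lay between, and neither its difference from 94 dpc (0.38 ± 0.31, adjusted p = 0.4) nor that from 28 dpn (0.72 ± 0.29, adjusted p = 0.095) passed. One animal weighs on the latter: replicate 6 of 1 dpn had a signal of 528 where the other 5 had 134 to 250, and without it the change to 28 dpn was 0.97 with adjusted p = 0.012. Among the 20 samples of higher GAPDH ratio that change was 0.48 (adjusted p = 0.44), and the change from 94 dpc to 1 dpn was 0.63 (adjusted p = 0.24). In the order 28 dpn, 1 dpn, 94 dpc, 188 dpn, no pair of neighbours differed by the test. Levels at 188 dpn and 94 dpc did not differ by the test (-0.22, adjusted p = 0.62), and that sign turned under quantile normalization (0.08) and with arrays centred on their median (0.07). The summed signal of the 5 endothelial markers was higher at 28 dpn than at 1 and 188 dpn, as was the mean signal of SLC22A5. The marker sum was 3110 to 5190 at 1 dpn, 6030 to 8720 at 28 dpn and 2500 to 3830 at 188 dpn, but 8600 to 14600 at 94 dpc. Of these 5, 4 rose from 1 to 28 dpn, where 13.5% of all genes rose, and 3 fell from 28 to 188 dpn, where 12.5% of all genes fell. VWF passed in neither step (log2 changes 0.42 and 0.03). In the 20 samples of higher GAPDH ratio, 2 of the 5 rose from 1 to 28 dpn, where 10.4% of all genes rose. The 3 measured erythroid markers summed to 959 to 1410 at 94 dpc, 381 to 1320 at 1 dpn, 745 to 2040 at 28 dpn and 377 to 559 at 188 dpn. Of these 3, 1 rose from 1 to 28 dpn, where 13.5% of all genes rose, and 2 fell from 28 to 188 dpn, where 12.5% fell. In the 20 samples of higher GAPDH ratio 0 of them rose from 1 to 28 dpn. The part of endothelial and erythroid cells in the SLC22A5 values was not tested.

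ACADVL, the dehydrogenase for very long chains, had a peak at 1 dpn. At 94 dpc probe set 1 gave signals of 3995, 3286, 2460, 2364 and 2435. At 1 dpn it gave 15615 to 27326 with a median of 19423, at 28 dpn 5456 to 7817 with a median of 6775, and at 188 dpn 3055 to 6162 with a median of 4516. The 1 dpn samples all lay above every sample of the other 3 stages, and the 28 dpn samples above every fetal sample.

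The rise of ACADVL probe set 1 from 94 dpc to 1 dpn was 7.03-fold (log2 change 2.81 ± 0.22, adjusted p = 7e-09), and among 6765 genes only 17 changed further upward. From 1 to 28 dpn it fell 2.99-fold (-1.58 ± 0.21, adjusted p = 1.3e-05), and from 1 to 188 dpn 4.54-fold (-2.18 ± 0.21, adjusted p = 3.3e-08). Between 1 and 188 dpn, 5 of the 9 probe sets fell, where 15.6% of all did. Of the 9, 3 lay entirely lower at 188 dpn, as did 6.51% of all. Over the 20 samples of higher GAPDH ratio 7 of the 9 fell between these stages, against 12% of all. Among the 20 samples of higher GAPDH ratio the 3 changes of probe set 1 were 3.15, -1.92 and -2.52, so none of them shrank.

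The later differences of ACADVL probe set 1 were small and close to the threshold. Probe set 1 was 1.52-fold lower at 188 than at 28 dpn without passing (-0.60, adjusted p = 0.054). It passed when replicate 2 of 28 dpn (-0.66, adjusted p = 0.048), replicate 3 of 188 dpn (-0.70, adjusted p = 0.032) or replicate 4 of 188 dpn (-0.66, adjusted p = 0.048) was left out. It also passed under quantile normalization (-0.68, adjusted p = 0.016), in a fit of only those stages (0.042) and in the 20 samples of higher GAPDH ratio (0.027). The filter on dim probe sets, a pseudocount of 64, trend and robust eBayes, array weights and the GAPDH covariate gave adjusted p of 0.021 to 0.032. With arrays centred on their median or a pseudocount of 1 it did not pass. Against 94 dpc probe set 1 was 1.55-fold higher at 188 dpn (0.63 ± 0.22, adjusted p = 0.024). That call was lost without replicate 3 (adjusted p = 0.06), 4 (0.066) or 5 (0.062) of 94 dpc, without replicate 3 (0.064) or 4 (0.056) of 188 dpn, and under quantile normalization (0.41, adjusted p = 0.11).

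ACADVL probe set 2 was also highest at 1 dpn. Its signals were 973, 924, 561, 589 and 437 at 94 dpc, 936 to 4184 with a median of 2182 at 1 dpn, 725 to 1262 at 28 dpn and 741 to 1712 at 188 dpn. Only 3 of the 6 samples at 1 dpn stood above all others. The log2 change was 1.58 ± 0.34 from 94 dpc to 1 dpn (adjusted p = 0.0011), -1.08 ± 0.32 from 1 to 28 dpn (adjusted p = 0.021) and -0.95 ± 0.32 from 1 to 188 dpn (adjusted p = 0.028). In the 20 samples of higher GAPDH ratio these changes were 2.36, -1.86 and -1.73, with adjusted p of 9.5e-06, 0.00019 and 0.00011. With all samples, the fall to 28 dpn was lost without replicate 3 (adjusted p = 0.054) or 6 (0.053) of 1 dpn and in a fit of only those stages (0.068). The fall to 188 dpn was lost without replicates 1, 3 or 6 of 1 dpn or 5 or 6 of 188 dpn (adjusted p = 0.057 to 0.079), under quantile normalization (0.051) and in a fit of only those stages (0.086). From 28 to 188 dpn probe set 2 changed by 0.14 (adjusted p = 0.85). Its rise from 94 dpc to 188 dpn did not pass (0.63, adjusted p = 0.15). That rise passed under quantile normalization, with centred arrays, with array weights and with the GAPDH covariate (adjusted p = 0.031 to 0.047). It also passed in the 20 samples of higher GAPDH ratio (0.04).

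HADHB, the thiolase subunit of the trifunctional protein, rose at birth, and its next call by probe set 1 was a fall from 28 to 188 dpn. Probe set 1 had signals of 2993, 3038, 2749, 2495 and 2589 at 94 dpc. It reached 10792 to 18949 (median 12108) at 1 dpn, 8185 to 12024 (median 9281) at 28 dpn and 4632 to 8626 (median 5762) at 188 dpn. Every sample after birth lay above every fetal sample, and every 1 dpn sample above every 188 dpn sample.

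The rise of HADHB probe set 1 to 1 dpn was 4.72-fold (log2 change 2.24 ± 0.18, adjusted p = 1.5e-08). The step from 1 to 28 dpn did not pass (-0.47 ± 0.17, adjusted p = 0.068), although it did without replicate 1 of 1 dpn (-0.53, adjusted p = 0.043) or replicate 5 of 28 dpn (-0.54, adjusted p = 0.048). It also passed with arrays centred on their median (-0.55, adjusted p = 0.046), the filter on dim probe sets (0.027), a pseudocount of 64 (0.042) and trend and robust eBayes (0.033). It did not under quantile normalization, with a pseudocount of 1, in a fit of only those stages, with array weights or with the GAPDH covariate. The fall from 28 to 188 dpn was 1.59-fold (-0.67 ± 0.17, adjusted p = 0.011). In that step HADHB probe sets 2 (-0.53, adjusted p = 0.18) and 3 (0.03, adjusted p = 0.98) did not pass. At 188 dpn probe set 1 was still 2.15-fold above its fetal level (1.10 ± 0.18, adjusted p = 3.7e-05). Its stages ran 1 dpn, 28 dpn, 188 dpn, 94 dpc, and the first pair of neighbours did not differ by the test. Over the 20 samples of higher GAPDH ratio the rise at birth was 2.16 and the step to 28 dpn -0.40.

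The other HADHB probe sets gave the same fetal-to-postnatal direction with different sizes. Probe set 2 rose by 1.85 ± 0.26 on the log2 scale from 94 dpc to 1 dpn (adjusted p = 1.3e-05) and was 1.13 ± 0.26 higher at 188 dpn than at 94 dpc (adjusted p = 0.0012). Its signals were 4438, 3782, 2801, 1494 and 2046 at 94 dpc, 6808 to 13609 at 1 dpn, 6612 to 11060 at 28 dpn, and at 188 dpn 4449 to 8714. Each fetal sample lay below all postnatal ones. Its fall from 1 to 188 dpn (-0.72 ± 0.25, adjusted p = 0.03) was lost when any of replicates 1, 3 or 6 of 1 dpn or 1, 2, 5 or 6 of 188 dpn was left out (adjusted p = 0.052 to 0.073) and with array weights (-0.67, adjusted p = 0.11). Among the 20 samples of higher GAPDH ratio that fall was -1.06 (adjusted p = 0.0091), and the rise at birth was 2.19 (adjusted p = 2.5e-05).

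HADHB probe set 3 split the 1 dpn samples. Replicates 1, 3 and 6 gave 9130, 11641 and 9844, whereas replicates 2, 4 and 5, which had the low GAPDH ratio, gave 1992, 1586 and 1791. Those 3 values lie inside the fetal range of 1428 to 4397. With all samples the log2 change from 94 dpc to 1 dpn was 0.75 ± 0.46 (adjusted p = 0.25), and without the 3 samples it was 2.00 (adjusted p = 8e-05). The step from 1 to 28 dpn turned from 0.24 (adjusted p = 0.77) to -1.01 (adjusted p = 0.026) and that from 1 to 188 dpn from 0.27 (adjusted p = 0.71) to -0.98 (adjusted p = 0.018).

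The same split was present in other probe sets of the set. All 3 samples of low GAPDH ratio lay below the other 3 of 1 dpn for ACADVL probe set 1 (15615 to 16485 against 22361 to 27326), ACADVL probe set 2 (936 to 1373 against 2991 to 4184), HADHB probe sets 2 and 3, and ACADS (1589 to 1777 against 2242 to 4414). They overlapped with the others for SLC22A5, HADHB probe set 1, ACADM and ECI1. As a fold taken from the means of log2 values, other over low was 5.66 for HADHB probe set 3 and 0.903 for HADHB probe set 1. Both are annotated to the same gene. Over all 23999 probe sets, the 3 samples lay all below the others for 10.3% and all above for 13.1%. The part of RNA quality in these differences was not tested, and differences between the animals cannot be told apart from it.

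ACADM, the medium-chain dehydrogenase, rose at birth, and no later step between neighbouring stages passed. Its signals were 1102, 2495, 2887, 2063 and 1698 at 94 dpc, with replicate 1 the lowest. They were 2756 to 8465 (median 4281) at 1 dpn, 4534 to 6122 (median 5174) at 28 dpn and 4584 to 7516 (median 5532) at 188 dpn. The fetal samples overlapped with 1 dpn by a single animal and lay below all of 28 and 188 dpn.

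ACADM was 2.24-fold higher at 1 dpn than at 94 dpc (log2 change 1.17 ± 0.25, adjusted p = 0.0014) and 2.86-fold higher at 188 dpn (1.52 ± 0.25, adjusted p = 4e-05). The steps between postnatal stages were 0.25 from 1 to 28 dpn (95% interval -0.25 to 0.75, adjusted p = 0.55) and 0.10 from 28 to 188 dpn (-0.40 to 0.61, adjusted p = 0.85). A change of up to 0.75 in the first step is thus within its interval. In the 20 samples of higher GAPDH ratio the rise at birth was 1.41 (adjusted p = 0.0014) and the step from 1 to 28 dpn 0.00. Its stages ran 188 dpn, 28 dpn, 1 dpn, 94 dpc, and only the last pair of neighbours differed by the test.

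ACADS, the short-chain dehydrogenase, gave signals of 811, 579, 331, 439 and 361 at 94 dpc. At 1 dpn they were 1589 to 4414 (median 2010), at 28 dpn 1280 to 1864 (median 1556) and at 188 dpn 1561 to 2203 (median 1662). No fetal sample reached any postnatal sample, and the 3 postnatal stages overlapped with each other.

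The rise of ACADS from 94 dpc was 4.7-fold at 1 dpn (log2 change 2.23 ± 0.25, adjusted p = 7.3e-07), 3.15-fold at 28 dpn (1.65 ± 0.25, adjusted p = 3.1e-05) and 3.56-fold at 188 dpn (1.83 ± 0.25, adjusted p = 2.3e-06). Postnatal neighbours did not differ by the test with all samples. Over the 20 samples of higher GAPDH ratio, the step from 1 to 28 dpn moved from -0.58 (adjusted p = 0.096) to -1.01 (adjusted p = 0.01), and that from 1 to 188 dpn from -0.40 (adjusted p = 0.23) to -0.83 (adjusted p = 0.02).

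ECI1, the isomerase for unsaturated chains, was high at 1 and 28 dpn and low at both ends. Its signals were 4534, 3912, 2894, 3487 and 3269 at 94 dpc and 7980 to 16474 (median 12871) at 1 dpn. At 28 dpn they were 9495 to 12923 (median 11159), and at 188 dpn 2934 to 5940 (median 4869). The samples at 1 and 28 dpn all lay above those at 94 dpc and 188 dpn, and within each of these pairs the stages overlapped.

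ECI1 rose 3.41-fold from 94 dpc to 1 dpn (log2 change 1.77 ± 0.20, adjusted p = 1e-06) and fell 2.35-fold from 28 to 188 dpn (-1.23 ± 0.19, adjusted p = 0.00011). From 1 to 28 dpn the change was -0.15 (95% interval -0.55 to 0.25, adjusted p = 0.67). The 188 dpn level did not differ from the fetal one by the test (0.39 ± 0.20, adjusted p = 0.15), but it did without replicate 2 of 188 dpn (0.52, adjusted p = 0.038) and with arrays centred on their median (0.68, adjusted p = 0.01). Among the 20 samples of higher GAPDH ratio the rise at birth was 1.96.

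**Figure D2:**
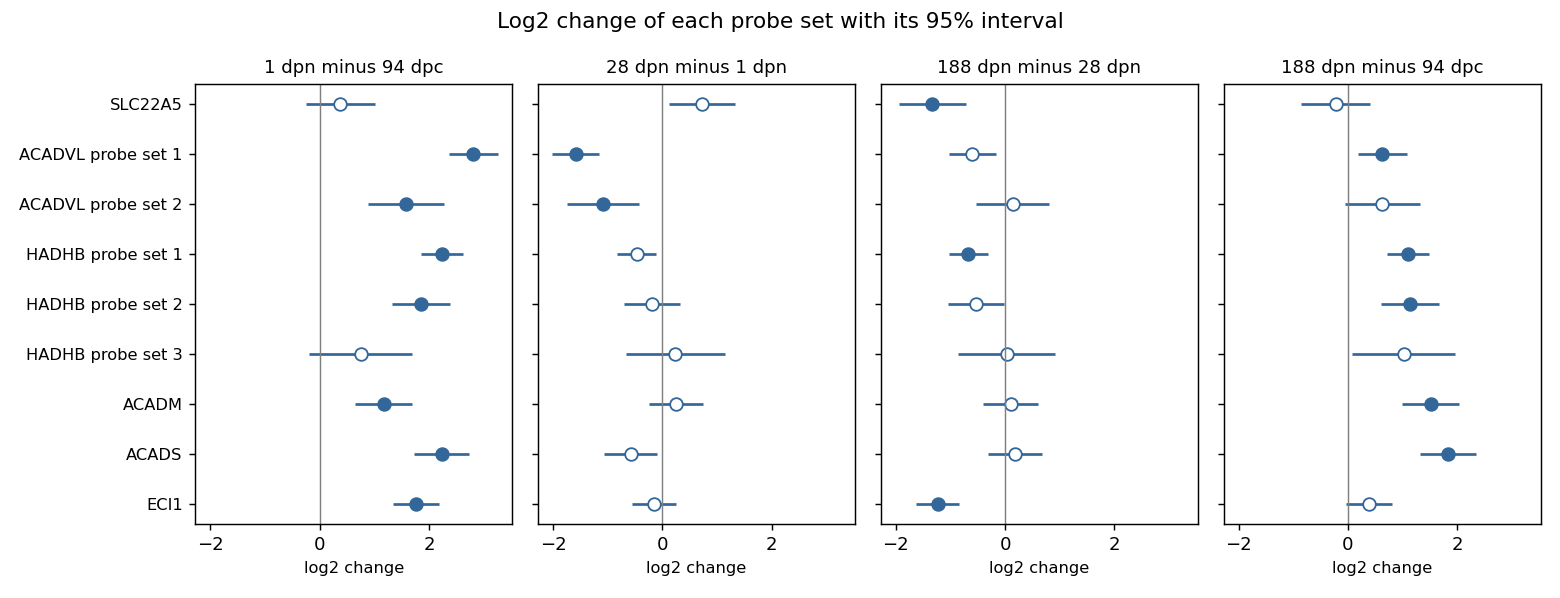
Log2 change (horizontal axis) of each probe set in 4 comparisons, with its 95% interval from the fit; filled points passed at an adjusted p under 0.05. All points lie right of 0 at 1 dpn against 94 dpc, from 0.38 for SLC22A5 to 2.81 for ACADVL probe set 1, and from 28 to 188 dpn the filled points are SLC22A5, HADHB probe set 1 and ECI1.

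Whether the dehydrogenases of different chain length changed by unequal amounts was tested within each array, where the scaling of the array cancels. For each sample the log2 ratio of 2 genes' signals was taken, each gene by its brightest probe set, and stages were compared by exact two-sided permutation tests with adjustment over the 12 tests made. The smallest p such a test can give here is 0.0022. A ratio of signals from different probe sets has no meaning as a level, so differences between stages are what is read. The pseudocount of 16 enters both genes.

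With all samples and by probe set 1, ACADVL gained on ACADM at birth and lost ground to it in both later steps. The log2 ratio of ACADVL to ACADM was -0.23 to 1.84 at 94 dpc, 1.65 to 3.02 at 1 dpn, -0.10 to 0.75 at 28 dpn and -0.61 to 0.06 at 188 dpn. It was 1.65 higher at 1 dpn than at 94 dpc (exact permutation adjusted p = 0.013), where replicate 1 of 94 dpc alone reached into the 1 dpn range. It was 1.83 lower at 28 than at 1 dpn with no overlap (difference -1.83, exact permutation adjusted p = 0.0087), and again lower at 188 dpn (-0.71, exact permutation adjusted p = 0.01). At 188 dpn it was below the fetal ratio (-0.89, exact permutation adjusted p = 0.013), and without replicate 1 of 94 dpc that difference was -0.56.

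Set against the short-chain dehydrogenase, ACADVL probe set 1 changed in the same directions. The log2 ratio of ACADVL to ACADS was 2.28 to 2.84 at 94 dpc, 2.63 to 3.31 at 1 dpn, 1.95 to 2.36 at 28 dpn and 0.67 to 1.89 at 188 dpn. It rose by 0.58 at birth (exact permutation adjusted p = 0.013). It then fell with no overlap from 1 to 28 dpn (-1.00, exact permutation adjusted p = 0.0087) and from 28 to 188 dpn (-0.78, exact permutation adjusted p = 0.0087). The 188 dpn samples lay below all fetal ones (-1.20, exact permutation adjusted p = 0.01).

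Part of these calls changed with the choice of ACADVL probe set. By itself, ACADVL probe set 2 changed by 1.58 at birth and by 0.14 from 28 to 188 dpn. In the same steps ACADS changed by 2.23 and 0.18, and ACADM by 1.17 and 0.10. Ratios with probe set 2 alone were not tested. With the mean of both probe sets, the rise of the ratio to ACADS at birth was gone (-0.04, exact permutation adjusted p = 0.84) and that of the ratio to ACADM did not pass (1.03, exact permutation adjusted p = 0.075). The falls from 28 to 188 dpn did not pass either (-0.34 with adjusted p = 0.065 for ACADM and -0.41 with adjusted p = 0.075 for ACADS, both by exact permutation). After quantile normalization, the ratio to ACADS rose by 0.17 at birth (exact permutation adjusted p = 0.46). The falls from 1 to 28 dpn passed in each of these alternatives for both ratios. In the 20 samples of higher GAPDH ratio, which leave 3 at 1 dpn, neither ratio's rise at birth passed. It was 1.74 for ACADM (exact permutation adjusted p = 0.054) and 0.49 for ACADS (exact permutation adjusted p = 0.095), where the smallest unadjusted p such a test can give is 0.018. The falls from 1 to 28 dpn passed there, at -1.92 and -0.91 (exact permutation adjusted p = 0.024 for both).

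The medium-chain gene gained on the short-chain gene between 1 and 28 dpn. The log2 ratio of ACADM to ACADS was 0.83 higher at 28 than at 1 dpn (exact permutation adjusted p = 0.014), and without replicate 3 of 28 dpn it was 0.73 higher (exact permutation adjusted p = 0.052). Its difference at birth, -1.07, did not pass (exact permutation adjusted p = 0.088), but it did without replicate 1 of 94 dpc (-1.46, exact permutation adjusted p = 0.0082) and after quantile normalization (-1.36, exact permutation adjusted p = 0.038). Over the 20 samples of higher GAPDH ratio, the differences were -1.25 at birth (exact permutation adjusted p = 0.15) and 1.01 from 1 to 28 dpn (exact permutation adjusted p = 0.041). From 28 to 188 dpn the difference was -0.08 (exact permutation adjusted p = 0.7). Between 94 dpc and 188 dpn it was -0.32 (exact permutation adjusted p = 0.52), and -0.70 without replicate 1 of 94 dpc (exact permutation adjusted p = 0.025).

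**Figure D3:**
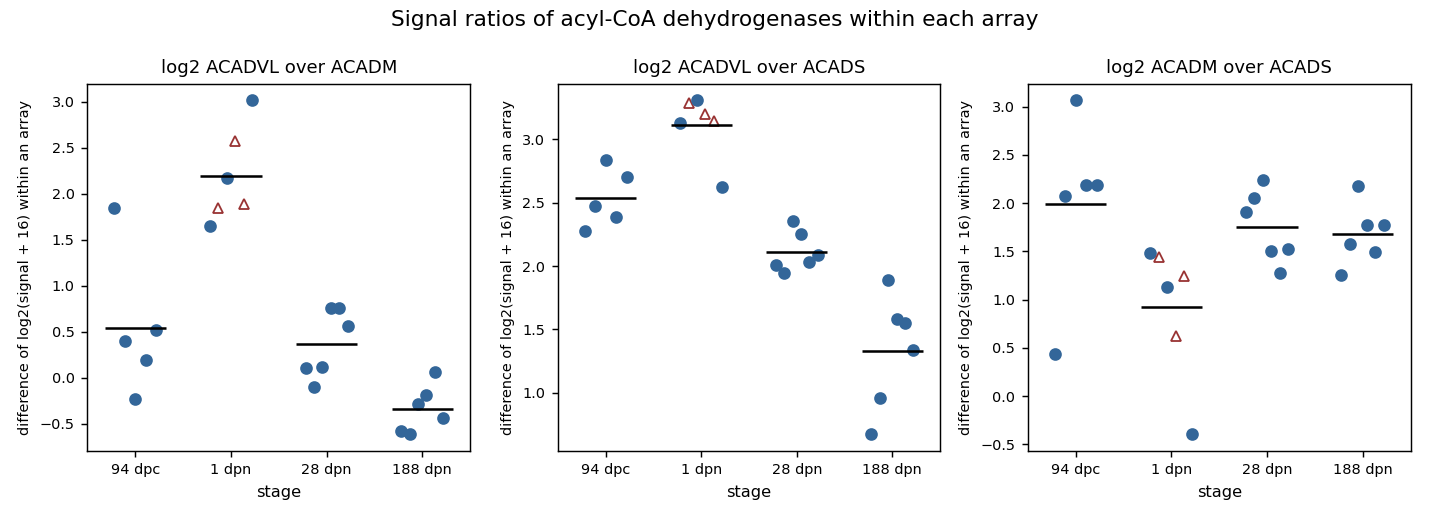
Log2 ratio of signals of 2 acyl-CoA dehydrogenases within each array (vertical axis, difference of log2(signal + 16)), by stage; points are samples, black lines stage means and open red triangles the 3 samples at 1 dpn of low GAPDH ratio. The ratio of ACADVL probe set 1 to ACADM peaks at 1 dpn (1.65 to 3.02). That of ACADVL probe set 1 to ACADS is lowest at 188 dpn (0.67 to 1.89).

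Some animals of a stage ranked alike across several of the genes. At 188 dpn, replicate 3 had the highest signal in 6 of the 9 probe sets and replicate 2 the lowest in 6. At 94 dpc, replicate 1 was highest in 6 probe sets and lowest for SLC22A5 and ACADM. At 28 dpn, replicate 5 was highest for all 3 HADHB probe sets and ACADS, and lowest for ACADM. At 1 dpn, replicate 2, which had a low GAPDH ratio, was lowest in 5 probe sets and highest for HADHB probe set 1. The 9 probe sets include several for 1 gene and share an array, so these counts are a description.

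Other genes that feed this pathway were described by lists, chosen with earlier results of these data known. Of 7 measured genes of the carnitine shuttle, SLC22A5 included, 4 rose from 94 dpc to 1 dpn and 0 fell, with a median log2 change of 0.97, where 13.7% of all 6765 genes rose and 19.4% fell. The count was the same in the 20 samples of higher GAPDH ratio, where 14.3% of all genes rose and 18.7% fell. CPT1B, the muscle form of the enzyme that loads acyl groups onto carnitine, rose by 2.90 ± 0.21 (adjusted p = 2.5e-09), and CRAT, which exchanges acetyl groups with carnitine, by 2.45 ± 0.19 (adjusted p = 6.9e-09). SLC25A20, the carnitine-acylcarnitine carrier of the inner membrane, rose by 1.19 and CPT1A by 0.97. After birth CPT1B and CRAT went opposite ways: from 1 to 28 dpn CPT1B fell by 1.68 (adjusted p = 3.5e-06) and CRAT rose by 0.87 (adjusted p = 0.0014). CPT1B fell again from 28 to 188 dpn, by 1.07 (adjusted p = 0.00058), as did SLC22A5.

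Of 17 other measured genes of mitochondrial beta-oxidation, 10 rose at birth and 0 fell (median log2 change 0.70), where 13.7% of all genes rose. In the 20 samples of higher GAPDH ratio 11 rose, where 14.3% of all genes did. HADHA, the alpha subunit that pairs with HADHB in the trifunctional protein, rose by 2.04 ± 0.18 (adjusted p = 3.8e-08). It was followed by ECI2, a further enoyl-CoA isomerase (1.47), ETFDH, which passes the electrons on to the respiratory chain (1.29), and ACAA2, a thiolase (1.18). From 1 to 28 dpn HADHA fell by 1.06, where HADHB probe set 1 had changed by -0.47 without passing. The difference between both subunits was not tested. In that step 3 of the 17 rose and 2 fell, where 13.5% of all genes rose and 10.6% fell. Among the 20 samples of higher GAPDH ratio the count turned to 1 that rose and 4 that fell, against 10.4% and 9.08% of all genes. The rises of ACADL (0.26) and ETFA (0.21) no longer passed there, and ECHS1 (-0.58, adjusted p = 0.027) and HSD17B10 (-0.91, adjusted p = 0.0019) joined HADHA and ETFDH among the falls. From 28 to 188 dpn 0 rose and 5 fell, with HADHA at -0.70 and ACAA2 at -1.03, where 5.78% of all genes rose and 12.5% fell.

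Of 14 measured genes of fatty acid uptake, binding and activation, 8 rose at birth and 0 fell (median log2 change 0.86), led by FABP3, the fatty acid binding protein of muscle and heart (2.53), and ACSL1, a long-chain acyl-CoA synthetase (2.11). From 1 to 28 dpn 2 of them rose and 4 fell, where 13.5% of all genes rose and 10.6% fell. From 28 to 188 dpn 0 rose and 4 fell, against 5.78% and 12.5% of all genes. Of 8 measured peroxisomal genes 3 rose at birth and 1 fell (0.25), where 13.7% of all genes rose and 19.4% fell. Of 11 measured regulators 2 rose and 0 fell (0.14), which is near the share of all genes that rose. These 2 were LPIN1 (2.76) and SIRT3 (0.95). PPARGC1A, a coactivator of oxidative metabolism, did not pass in any comparison, with mean signals of 546, 531, 516 and 531 from the fetal to the oldest stage. Of 17 measured genes of the tricarboxylic acid cycle, which takes up the acetyl-CoA, 13 rose at birth and 0 fell (1.27). In the 20 samples of higher GAPDH ratio, the counts at birth were 9 of 14 for uptake, 3 of 8 for peroxisomal genes with 0 lower, 2 of 11 for regulators and 16 of 17 for the cycle. Over all genes 14.3% rose there and 18.7% fell. From 1 to 28 dpn 1 of the uptake genes rose and 4 fell in these samples, against 10.4% and 9.08% of all genes.

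Between 94 dpc and 188 dpn the lists differed in their counts, and differences between lists were not tested. In the tricarboxylic acid cycle 14 of 17 were higher and 1 lower (median log2 change 1.13). In the other beta-oxidation genes 4 of 17 were higher and 0 lower (0.24), and in the carnitine shuttle 2 of 7 were higher and 0 lower (0.15). Of the 6 genes described here, 4 were higher. Over all genes, 19.5% were higher and 27.4% lower. All 8 measured muscle markers were higher at 188 dpn than at 94 dpc, with a median log2 change of 1.00, and their part in these counts was not tested. Of the 4 measured fibroblast markers 3 were lower and of the 5 endothelial markers 4.

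The genes whose values ran closest to each of the 6 were found over all 23 samples. Likeness was the root mean square difference of log2 values after each gene's own mean was removed, among 4962 genes of above-median signal. The values share arrays and stages, so the measure is a description. ACADVL lay closest to CPT1B (0.31), HADHA (0.32) and FABP3 (0.39), where the median over all genes compared was 1.21. Mean signals of CPT1B were 1020 ± 316 (SD, n = 5), 7720 ± 2150, 2340 ± 257 and 1110 ± 193 (n = 6 each) from 94 dpc to 188 dpn, with the 1 dpn samples above all others as for ACADVL.

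HADHB lay closest to NNT (0.26), a proton-pumping transhydrogenase of the inner membrane, UQCRB (0.33), a subunit of respiratory complex III, and ALAS1 (0.33), the first enzyme of heme synthesis. ACADS lay closest to IDH2 (0.28), LOC100156879 (0.34) and MCRIP2 (0.35). ECI1 was nearest to MDH1 (0.29) and MDH2 (0.32), the cytosolic and mitochondrial malate dehydrogenases, and GLRX5 (0.33). ACADM was nearest to NDUFA3 (0.35), a subunit of respiratory complex I, MYOT (0.35), a Z-disc protein, and NIT1 (0.36). SLC22A5 was nearest to SRGN (0.32), CLIC2 (0.40) and IRF9 (0.42), where the median over all genes was 0.86. None of the 6 was among the 3 nearest genes of another. Among themselves, HADHB and ECI1 were the closest pair (0.45) and SLC22A5 and ACADVL the farthest (1.09), while ACADVL and ACADM, both acyl-CoA dehydrogenases, lay 1.05 apart.

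**Figure D4:**
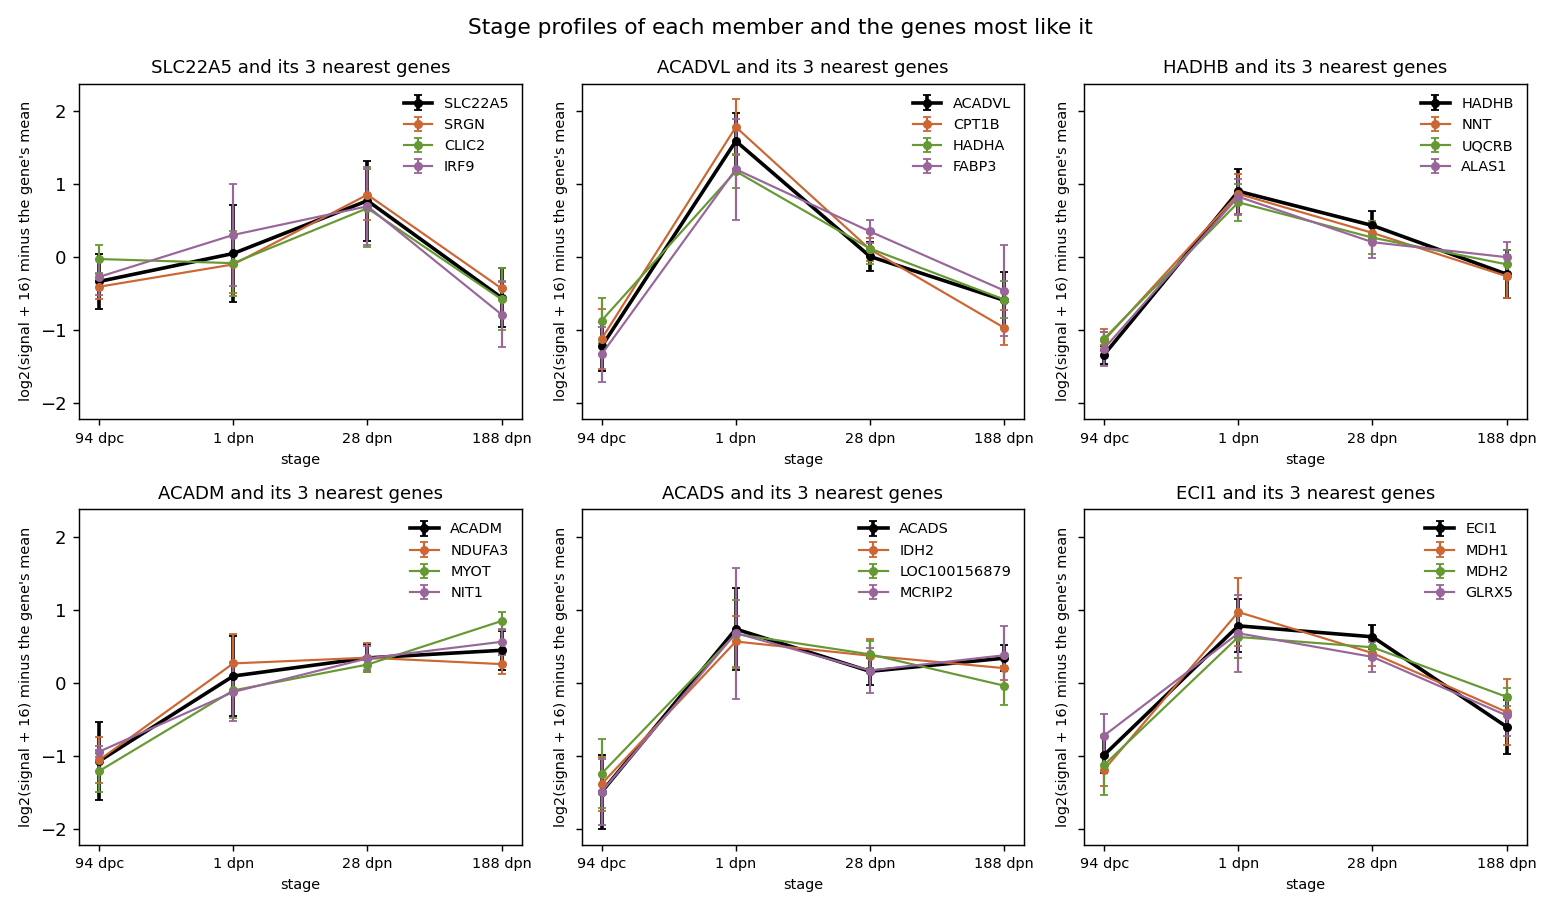
Stage means of log2(signal + 16) minus each gene's own mean over 23 samples (vertical axis), for each of the 6 genes (black) and its 3 nearest genes (colours); error bars are SDs over the 5 or 6 samples of a stage. The ACADVL group has its peak at 1 dpn, the ACADM group has its lowest stage mean at 94 dpc, and the SLC22A5 group is highest at 28 dpn.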

How the data were processed

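Per the labels' protocols, total RNA was isolated with TRI Reagent, DNase-treated and column-purified, and biotinylated cRNA was made for a porcine Affymetrix array. The deposited values are intensities on a linear scale, 1 per probe set and array. The submitters' processing notes list GCOS 1.1.1 but no role for it. How signals were summarised and background-corrected was not given in the sources used here. The 2% trimmed mean was 500.1 to 500.2 on each array, from which the values were taken as already scaled. A shift of many transcripts on an array therefore moves the others.

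Gene symbols came from the platform annotation (10069 probe sets with 1 symbol, 198 with several, 13732 with none); all 9 matched a RefSeq symbol. No pair of arrays was identical. Replicates were numbered by accession, and the number serves as a name. The labels do not say which samples share a dam, so the tests treat samples as independent and p-values may be too small.

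Values were taken as log2(signal + 16), which understates changes of dim probe sets. With limma 3.58.1 in R 4.3.3, the 4 stage means were estimated jointly from the 23 arrays and all 6 pairs of stages compared, two-sided, with Benjamini-Hochberg adjustment over 23999 probe sets and calls at an adjusted p under 0.05. SEs and 95% intervals come from this fit, which was tested on simulated data. A gene was represented by its probe set of highest mean log2. Log2 ratios within arrays were compared by exact permutation tests, adjusted over 12. All member probe sets were named, up to 4 called genes of a list with the largest change, and the 3 nearest genes by likeness. Members, lists and alternatives were chosen with earlier results of these data known. Alternatives were quantile normalization, median centring, a filter on dim probe sets, pseudocounts of 1 and 64, a fit of only 2 stages, trend and robust eBayes, array weights, leaving out each sample, leaving out samples of GAPDH ratio under 0.5 or using that ratio as a covariate, and the mean of a gene's probe sets. Plots were made in Python 3.11.15 (matplotlib 3.10.9).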

Additional observations from a re-analysis of the deposited data

Results flagged for a closer look

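In 84 groups of 5 or 6 samples, the distance of the most extreme sample from its neighbour was set against the range of the group. Of these, 36 were groups of signals, 36 the same groups on the log2 scale and 12 groups of log2 ratios, and chance alone puts about 1 in 20 groups past the critical value. In 2 of the 84 a sample stood apart. For SLC22A5 at 1 dpn, replicate 6 had a signal of 528 and the other 5 samples 134 to 250, with a gap of 0.71 of the range (critical value 0.625). On the log2 scale that sample was not past the critical value. For the log2 ratio of ACADVL to ACADS at 1 dpn, replicate 6 had 2.63 and the other 5 samples 3.13 to 3.31, with a gap of 0.74 of the range. Replicate 6 was also the sample with the highest ACADVL probe set 1 and ACADS signals of its stage.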

How the results depend on the processing

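Depth cannot be given for arrays, and the number of samples limits precision. SLC22A5 had the lowest mean signal of the genes described here at each stage. No paired analysis was possible because the labels give no replicate numbers that stages share.

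Of the 9 probe sets, 2 were lower from 1 to 28 dpn in the main fit, where 1686 of all 23999 were lower. Without the dimmer probe sets 4 were lower and 1, SLC22A5, higher, where 1823 of 11999 were lower and 2506 higher. Without the 3 samples of low GAPDH ratio 4 were lower (1227 of all), and with that ratio as a covariate 4 (1112 of all). In a fit of only those stages 1 was lower (966 of all), and over all probe sets that fit made 2453 calls in either direction against 4121. From 94 dpc to 188 dpn 8 were higher with arrays centred on their median, where 5281 of all were higher. The main fit had 5, where 3202 of all were higher. With 1 sample left out, 1 to 3 passed from 1 to 28 dpn (1 without replicate 3 of 1 dpn) and 3 to 5 from 1 to 188 dpn (3 without replicate 1, 3 or 6 of 1 dpn or 5 or 6 of 188 dpn). All of these were lower except SLC22A5, which was higher at 28 dpn without replicate 6 of 1 dpn. Over all probe sets these fits made 3376 to 4719 and 6309 to 7257 calls in either direction. The cause was not tested.

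Without the 3 samples of low GAPDH ratio, which leaves 3 at 1 dpn, the ratios of ACADVL to ACADM (1.74) and to ACADS (0.49) no longer passed at birth. Other ratios that changed sides were ACADVL to ACADS at birth after quantile normalization (0.17) and with the mean of all probe sets (-0.04), and, with that mean, ACADVL to ACADM at birth (1.03) and from 28 to 188 dpn (-0.34) and ACADVL to ACADS from 28 to 188 dpn (-0.41). The ratio of ACADM to ACADS at birth passed after quantile normalization (-1.36). With 1 sample left out, this ratio changed by -1.46 to -0.80 at birth, 0.56 to 0.94 from 1 to 28 dpn, -0.18 to 0.02 from 28 to 188 dpn and -0.70 to -0.05 from 94 dpc to 188 dpn.

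Among single probe sets, signs turned only for values that had not passed with all samples. HADHB probe set 3 changed from 1 to 28 dpn by -1.01 without the samples of low GAPDH ratio, -1.05 with the covariate and -0.04 to 0.53 with 1 sample left out. From 1 to 188 dpn these were -0.98, -1.01 and -0.02 to 0.56, and from 28 to 188 dpn -0.04 after quantile normalization and -0.07 to 0.11 with 1 sample left out. ACADVL probe set 2 ranged from -0.01 to 0.23 from 28 to 188 dpn with 1 sample left out. SLC22A5 from 94 dpc to 188 dpn was 0.08 after quantile normalization and 0.07 with centred arrays. Without a sample left out, 470 of 513 alternative values of single probe sets kept direction and side of the threshold, 31 passed newly, 5 no longer passed and 7 turned.

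Scaling moved the share of calls that were higher from 31.2% to 47.3% (quantile) and 59.4% (centred) for 1 dpn against 94 dpc, with the median change of all probe sets at -0.108, 0.038 and 0.165. For 28 dpn against 94 dpc the shares were 37.6%, 50.2% and 59.1%, and for 188 dpn against 94 dpc 36.3%, 48.8% and 56.9%. From 28 to 188 dpn they were 33.7%, 42.5% and 46.6%.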
